A study of Mus musculus with 123 samples.

Results

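The regions described here carried a peak of histone H3 lysine 4 methylation in the lists named ES1 and ES3 and none in the list named ES2. All peaks that touched or overlapped, from any of the 3 lists, were joined, which gave 30974 union regions on chromosomes 1 to 19 of the mouse build mm9. Members were chosen by the presence and absence of deposited peaks, and a region was left out if it held a single peak of 10 kb or wider. The rule gave 1539 members, which were 4.97% of all union regions, 6.02% of the 25552 regions with an ES1 peak and 13.7% of the 11271 regions with an ES3 peak. Of the 9745 regions with both an ES1 and an ES3 peak, 15.8% had no ES2 peak, and width removed 1 of those 1540 regions. These shares are the rule's own values and were not tested.

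The series profiled H3K4me2 (86 libraries) and H3K4me3 (37 libraries) in droplets, in which the chromatin of single cells was barcoded before immunoprecipitation. The cells were V6.5 mouse embryonic stem cells (mESC) grown with serum and LIF, purchased mouse embryonic fibroblasts (MEF) and EML, a blood progenitor line. For H3K4me2 the 8 groups of libraries were mESC with barcodes 1 to 1152 (55 libraries), mESC with barcodes 1 to 576 (4), MEF (3) and pools of mESC and MEF (24), and for H3K4me3 they were pools of mESC and MEF (19), of mESC and EML (4) and of EML and MEF (4), and a mix of mESC and MEF (10). The lists ES1, ES2 and ES3 are taken here as sets of mESC by their names. Not given in the sources used here were the mark, the libraries and the cells behind each list, and whether the profiles that gave the peaks had also sorted the cells into lists. The labels name 1 stem cell line and each list exists once, so no difference between lists has a replicate check or a p-value.

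Methyl groups on lysine 4 of histone H3 are written by the MLL and SET1 families of enzymes, which work in complexes built on a shared core, and are removed by the KDM1 and KDM5 demethylases. Trimethylation is found mainly at promoters, including the poised promoters of developmental genes in stem cells that also carry the Polycomb mark. Dimethylation covers promoters and also enhancers, many of which are used in 1 cell state and not in another. No annotation or sequence of the mm9 build was used here, so the members are given by position, without genes.

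A peak has a width and a number of reads. Its width is the stretch from start to end, and its reads are the number recovered from the authors' score, which covers only an inner interval that begins at the peak's start. That interval equalled the whole peak for 58.8% (ES1), 62.8% (ES2) and 67.6% (ES3) of the peaks. The lists held 25878, 21202 and 12239 autosomal peaks. The unit of the score was taken as the bp per read over each whole chromosome, which is an assumption. The read density from it had a median over chromosomes of 0.980 reads per kb for ES1, 0.984 for ES3 and 1.11 for ES2. By this measure ES2 was slightly deeper than ES1, by 1.04 to 1.16 times across chromosomes. The fewest reads behind any peak of a chromosome were 8 to 10 in each list. Without a peak a list holds no number, and the ES2 level at the members is unknown. A missing ES2 peak does not show that the mark was absent from those cells.

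Members were short regions with few reads in both lists, as were regions of the other classes that lacked a list. Their median span was 1900 bp, with quartiles of 1256 and 2584 bp and extremes of 504 and 8860 bp. Together they spanned 3.25 Mb, of which ES1 peaks covered 2.72 Mb and ES3 peaks 2.03 Mb. Of the 1539 members, 1532 held 1 peak of each list, 3 held 2 ES1 peaks and 4 held 2 ES3 peaks. The median was 15 ES1 reads, with a range of 8 to 81, and 13 ES3 reads, with a range of 8 to 53. Both medians lay a few reads above the fewest that any peak held. Over all autosomal peaks the medians were 16 reads in ES1 and 14 in ES3. Regions of ES1 and ES2 without ES3 had a median span of 2173 bp and 16 ES1 reads. For ES2 and ES3 without ES1 these were 1607 bp and 13 ES3 reads. They were 1176 bp and 13 reads for ES1 alone, and 940 bp and 12 reads for ES3 alone. In the members, the smaller of the 2 numbers had a median of 12, and its 90th percentile was 16. At least 15 reads in both lists were found in 326 members (21.2%, exact binomial 95% interval 19.2 to 23.3), and at least 20 in 59 (3.83%, 2.93 to 4.92). In regions with peaks in all 3 lists these shares were 44.6% (43.5 to 45.7) and 24.8% (23.9 to 25.7). Those regions, like the other classes compared here, had no limit on width. Reads were summed over all peaks of a list in a region, and few members held more than 1 peak of a list. The comparisons with other classes are thus not like for like. All intervals here cover counting error only.

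**Figure D1:**
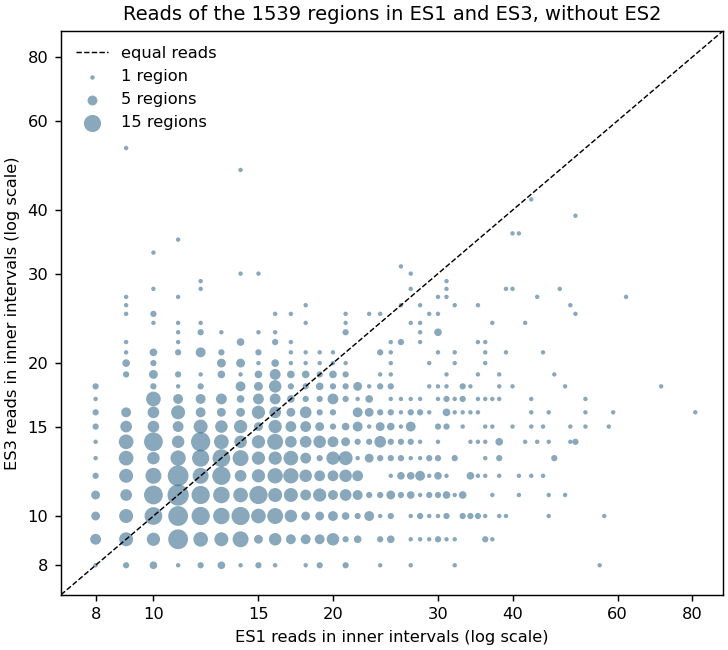
ES1 reads (x axis) and ES3 reads (y axis) of the 1539 members, both on log scales. Dot area gives the number of members at each pair of values and the dashed line marks equal reads. The medians are 15 ES1 and 13 ES3 reads, and the highest values are 81 in ES1 and 53 in ES3.

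The smallest values lay close to the least that any peak held. In 687 members (44.6%, 42.1 to 47.2) at least 1 of the 2 lists was within 2 reads of the fewest behind any of its peaks on that chromosome, and in 129 (8.38%, 7.05 to 9.88) both were. These shares were not computed for other regions, so they cannot be read as particular to the members. The smaller number was then scaled to the read density of ES2 on the same chromosome. It came to no more than the fewest reads behind an ES2 peak there in 20 members (1.30%, 0.796 to 2.00). This share was nearly fixed in advance. Any peak of a member held at least the fewest reads of its own list, 8 to 10. The ES2 minimum was also 8 to 10, and scaling to the deeper ES2 raised the number. Why the members had no ES2 peak was not tested. The fewest reads take no account of the length of the interval.

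The share of regions without an ES2 peak fell along reads and width. Among regions with ES1 and ES3 peaks, 26.0% (24.2 to 27.8) had no ES2 peak at 8 to 13 ES1 reads, the lowest of 5 bins, against 2.51% (1.85 to 3.32) at 40 reads or more, the highest. By ES3 reads it went from 23.0% (21.3 to 24.8) at 8 to 11 reads to 2.42% (1.77 to 3.23) at 25 or more. By the span of the ES1 and ES3 peaks it went from 30.2% (28.2 to 32.3) at 502 to 1612 bp to 1.44% (0.957 to 2.07) at 5618 bp and above. Presence of ES2 chose the members, and a wider span meets any list more often, so these shares describe the members and support nothing further.

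**Figure D2:**
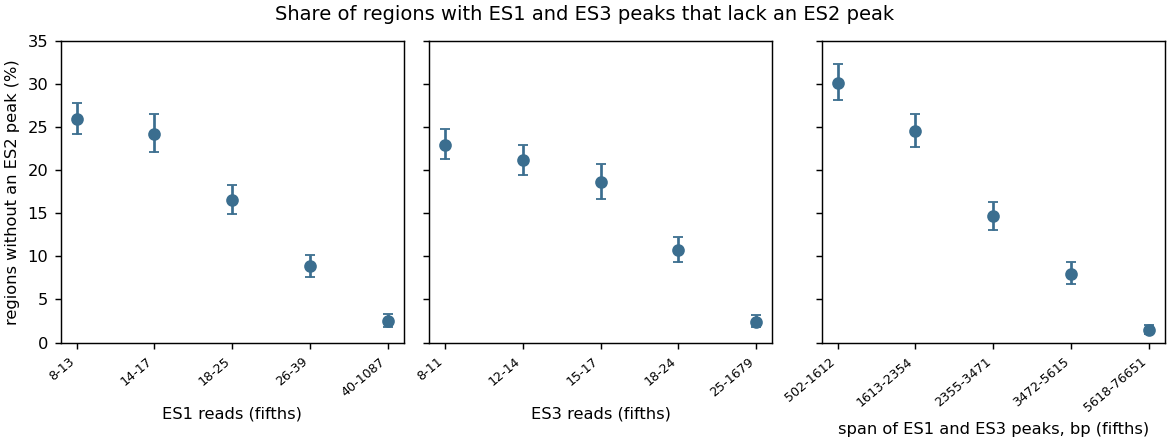
Share of the 9745 regions with ES1 and ES3 peaks that had no ES2 peak (y axis, %), in 5 bins each of ES1 reads, of ES3 reads and of the span of both peaks in bp (x axes, each with the range of the bin). Points are shares and bars exact binomial 95% intervals. The share is lowest in the top bin of all 3 panels, at 2.51%, 2.42% and 1.44%.

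The members with the highest reads in both lists were wider than the median of 1900 bp. The 8 with the largest smaller value held 31 to 51 ES1 reads and 28 to 42 ES3 reads over regions of 2591 to 6178 bp. ES1 had more reads than ES3 in 8 of these 8, and in 8 of 8 the counting intervals overlapped. At chr10:6004239-6009209, a region of 4971 bp, ES1 held 43 reads (exact Poisson 95% interval 31.1 to 57.9) and ES3 42 (30.3 to 56.8). The closest ES2 peak lay 1607 bp away, was 3793 bp wide with 15 reads (8.40 to 24.7) in its inner interval of 1326 bp, and had no ES1 or ES3 peak. At chr4:99324594-99330424 ES1 held 51 reads (38.0 to 67.1) in 1 peak and ES3 39 (27.7 to 53.3) in 2 peaks. An ES2 peak with 33 reads (22.7 to 46.3), in a region of all 3 lists, lay 3071 bp from it. These 2 regions thus lay beside ES2 peaks and not in empty surroundings.

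At chr15:99868068-99874245, the broadest of the 8 at 6178 bp, ES1 held 40 reads (28.6 to 54.5) and ES3 36 (25.2 to 49.8). The closest ES2 peak was 12.4 kb away and small, with 10 reads (4.80 to 18.4) over 501 bp. At chr17:28583359-28589033 ES1 held 41 reads (29.4 to 55.6) and ES3 36 (25.2 to 49.8), and both peaks covered nearly the same stretch, with 5007 bp shared. At chr11:94947533-94950563 ES1 held 31 reads (21.1 to 44.0) and ES3 held 29 (19.4 to 41.6), with ES2 at a distance of 6568 bp. The region at chr2:31614366-31618756 had the largest lead of ES1 among these, with 48 reads (35.4 to 63.6) against 28 (18.6 to 40.5).

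The last 2 of the 8 differed in their surroundings. At chr4:129138275-129142235 ES1 held 40 reads (28.6 to 54.5) and ES3 28 (18.6 to 40.5), and the closest ES2 peak, of 11 reads (5.49 to 19.7), lay 20.3 kb away. At chr11:75006536-75009126 ES1 held 39 reads (27.7 to 53.3) and ES3 28 (18.6 to 40.5), with an ES2 peak of 10 reads (4.80 to 18.4) at 2184 bp. An ES2 peak lay within 5 kb in 4 of the 8. Among all 59 members with at least 20 reads in both lists, 19 had an ES2 peak within 5 kb and 24 had none within 10 kb.

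**Figure D3:**
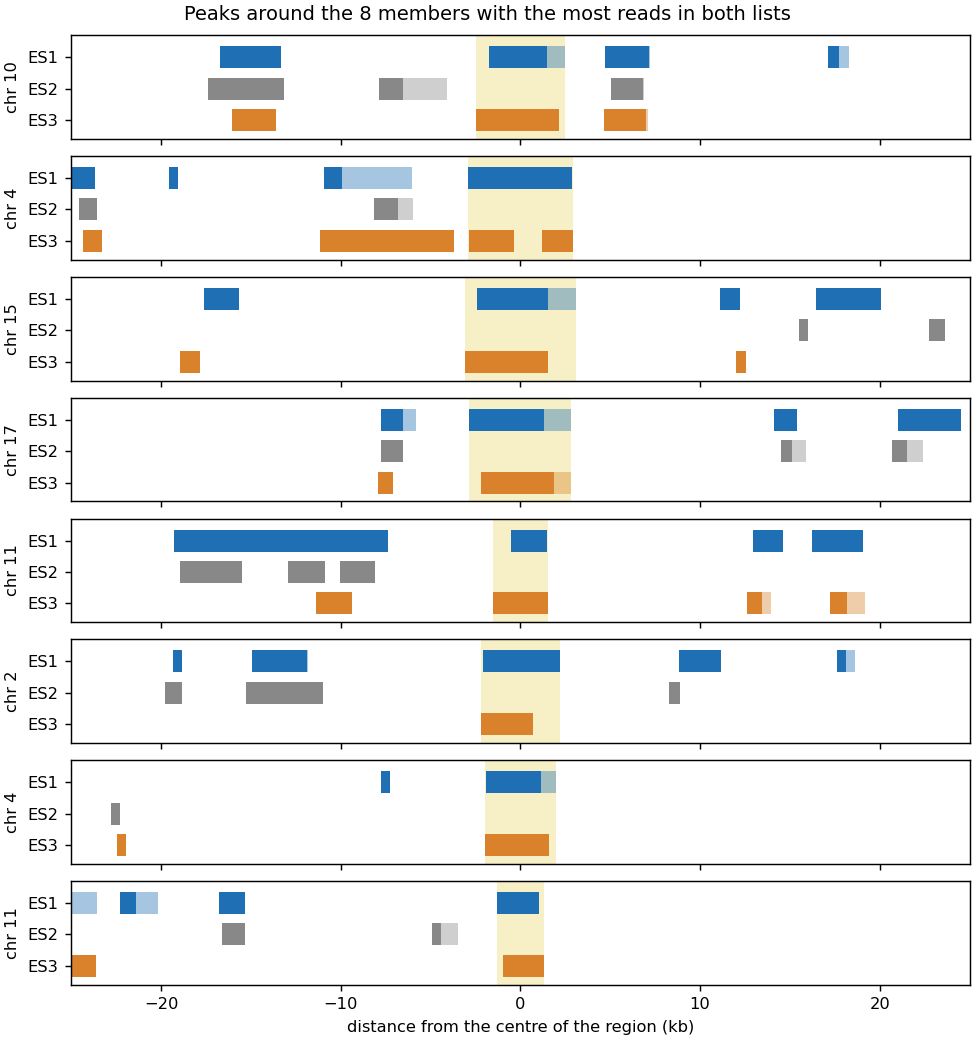
Peaks of ES1 (blue), ES2 (grey) and ES3 (orange) within 25 kb on either side of the 8 members with the most reads in both lists (x axis, distance from the centre of the member in kb). Pale bars are whole peaks, dark bars the inner intervals that hold the recovered reads, and the yellow band is the member. No ES2 peak enters a yellow band, while 4 of the 8 have an ES2 peak within 5 kb.

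Most members held far fewer reads. The smaller of the 2 read numbers had a median of 12, and the first member at this value, chr1:9536619-9540025, held 18 ES1 reads (10.7 to 28.4) and 12 ES3 reads (6.20 to 21.0). Its ES1 peak was 2642 bp wide and its ES3 peak 1953 bp, and they shared 1188 bp. An ES2 peak of 500 bp with 10 reads (4.80 to 18.4) lay 496 bp from this region. This example is at the median only in that read number: its width of 3407 bp was above the upper quartile of 2584 bp, and its gap to ES2 was far shorter than the median of 11817 bp.

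ES1 peaks were larger than ES3 peaks in most members, less often than in regions of all 3 lists. ES1 had more reads in 945 members, ES3 in 487, and 107 had equal numbers, so ES1 led in 61.4%. In regions with peaks in all 3 lists, which had no limit on width and summed reads over all their peaks, ES1 led in 69.5%. This lead depended on the lists used. With the top 12239 peaks of each list by score, ES1 led in 48.7% of the regions that met the rule. With the top peaks by reads, it led in 90.5%. ES3 stayed whole at that length, and the ranking chose which ES1 peaks stayed. Both shares thus follow in part from the ranking, and neither compares the whole lists. The median ES1 peak cover was 1493 bp against 1201 bp in ES3 in the members, and 2821 bp against 1756 bp in regions of all 3 lists. For most single members the difference was within counting error: the Poisson intervals overlapped in 1441 members, ES1 was above ES3 in 92 and below it in 6. Across the 1539 members, which share a floor of 8 to 10 reads in both lists, ES1 and ES3 reads had a Spearman's rho of 0.16, and across regions of all 3 lists 0.28. For reads per kb of inner interval rho was 0.26 in the members and 0.22 in regions of all 3 lists. For covered bases it was 0.35 and 0.58. Reads followed the length of the inner interval, with rho of 0.84 in ES1 and 0.83 in ES3, and few members held many reads. The value for reads thus does not show how closely the lists were related.

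Read density was similar in the 2 lists. The median was 14.3 reads per kb of inner interval in ES1 and 13.2 in ES3, and the ratio of ES3 to ES1 had a median of 0.921 with quartiles of 0.692 and 1.20. Density depended on the length of the interval, with Spearman's rho of -0.83 in ES1 and -0.89 in ES3 across members, all of which held at least 8 reads in each list. A comparison over like intervals was possible in 772 members, whose inner intervals shared at least 50% of both. There the medians were 14.8 and 13.3 reads per kb, ES1 was denser in 501 (64.9%), ES3 in 257 and neither in 14. The ratio had a median of 0.908 and quartiles of 0.759 and 1.07. The intervals of the 2 densities were apart in 3 of these 772, with ES1 higher in each.

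The members with the most unequal densities, among the 326 with at least 15 reads in both lists, had inner intervals of unequal length. At chr6:71858557-71862926 ES1 held 23 reads (14.6 to 34.5) in an inner interval of 501 bp and ES3 17 (9.90 to 27.2) in 1963 bp, a density ratio of ES3 to ES1 of 0.189. The next lowest ratios were 0.211 at chr19:4169690-4172963, 0.224 at chr4:155108153-155110134, 0.310 at chr8:33993796-33995498 and 0.342 at chr11:115323852-115325797. The highest ratio, 2.82, was found at chr18:65241668-65244005, with 20 ES1 reads (12.2 to 30.9) over 2171 bp and 16 ES3 reads (9.15 to 26.0) over 616 bp. It was followed by 2.71 at chr7:80701710-80707181, 2.31 at chr6:82559532-82563736, 2.15 at chr8:26574324-26576634 and 2.05 at chr15:57524739-57527855. In the 2 members described with their reads the counts of the lists were close, and the lengths of the inner intervals set the ratio.

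In 6 members, chosen after their values were seen, ES3 reads exceeded ES1 reads beyond the counting intervals. The largest was chr15:78857522-78862773, with 53 ES3 reads (39.7 to 69.3) over an inner interval of 3893 bp and 9 ES1 reads (4.12 to 17.1) over 501 bp. It was followed by chr17:56441704-56447316, with 48 ES3 reads (35.4 to 63.6) over 4714 bp and 14 ES1 reads (7.65 to 23.5) over 850 bp. The ES1 peaks there spanned 5252 and 4714 bp, and the ES1 reads outside their short inner intervals are unknown. Per kb of inner interval, ES3 was lower in both, at 0.758 and 0.618 times ES1.

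The ES1 and ES3 peaks of a member overlapped to a varying extent. The median member shared 826 bp between the lists, which was 65.5% of the ES1 and 83.8% of the ES3 bases by the medians of each share. In regions of all 3 lists these were 56.3% and 97.0%. The classes were not matched for width, and the median ES1 cover was 2821 bp there against 1493 bp in the members. With lists of equal length, the ES3 share of regions that met the rule was 86.1% by score and 98.8% by reads. Among the 1532 members with 1 peak of each list, the peaks were staggered in 813 (53.1%), the ES3 peak lay inside the ES1 peak in 474 (30.9%) and the ES1 peak inside the ES3 peak in 245 (16.0%). Peak centres were a median of 311 bp apart, with quartiles of 124 and 616 bp. The overlap was at least 50% of both lists' bases in 856 members (55.6%, 53.1 to 58.1). It was under 100 bp in 19 members, with a smallest value of 14 bp, and the inner intervals did not overlap in 66 (4.31%).

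The widest members were wide mainly in ES1. At chr13:55700754-55709613 the ES1 peak spanned all 8860 bp, but its reads are known only for an inner interval of 501 bp, with 20 (12.2 to 30.9), and the ES3 peak of 501 bp held 12 (6.20 to 21.0). At chr16:8717864-8726077 the ES1 peak of 8214 bp was its own inner interval and held 81 reads (64.3 to 101), the highest of any member. The ES3 peak there covered 3405 bp with 16 reads (9.15 to 26.0) in 1764 bp. At chr14:20589254-20597261 ES1 held 56 reads (42.3 to 72.7) over 7565 bp, and a 500 bp ES3 peak with 8 reads (3.45 to 15.8) touched its edge over 57 bp. This member thus rested on a marginal overlap.

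The other 2 of the 5 widest members each held 2 ES3 peaks. At chr10:80725460-80733029 ES1 held 62 reads (47.5 to 79.5) and ES3 27 (17.8 to 39.3), and at chr19:5361236-5368763 ES1 held 28 (18.6 to 40.5) and ES3 24 (15.4 to 35.7). The widest single peaks of members, at 8860, 8214 and 7565 bp, were the nearest below the limit of 10000 bp. The only region removed by it, chr5:122959118-122969685, had an ES1 peak of 10410 bp with 91 reads (73.3 to 112).

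Members lay among ES2 peaks as other regions without ES2 did. The gap from a member to the nearest ES2 peak had a median of 11817 bp, and it was within 1 kb in 28 members (1.82%, 1.21 to 2.62), within 10 kb in 699 (45.4%, 42.9 to 47.9) and within 50 kb in 1271 (82.6%, 80.6 to 84.4). Within 5 kb the count was 374 (24.3%, 22.2 to 26.5). Among all 10859 union regions without an ES2 peak this share was 24.6%, so the members were near that background. The share was 24.5% (23.6 to 25.4) in regions of ES1 alone and 26.5% (23.6 to 29.5) in regions of ES3 alone. Within 10 kb, the members' share of 45.4% was above the 42.3% (41.2 to 43.4) of ES1 alone, with overlapping intervals.

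**Figure D4:**
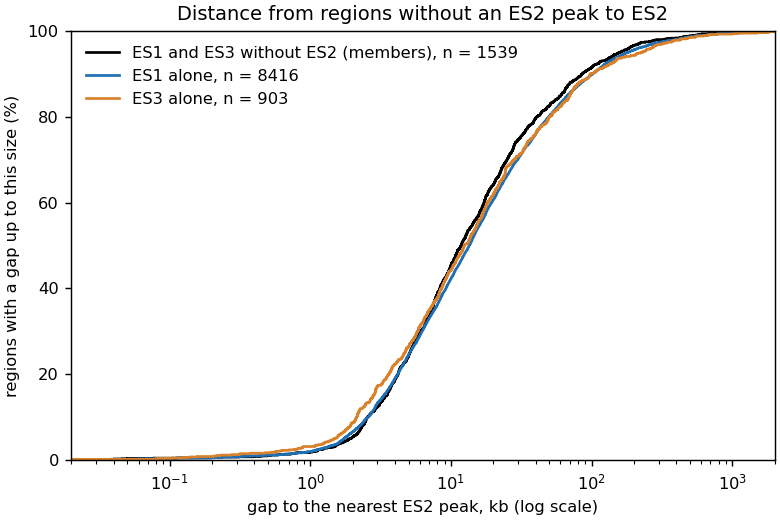
Cumulative share of regions (y axis, %) by the gap to the nearest ES2 peak in kb (x axis, log scale), for the 1539 members (black), 8416 regions of ES1 alone (blue) and 903 regions of ES3 alone (orange). The curves run close together, with 24.3%, 24.5% and 26.5% of the regions within 5 kb.

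The ES2 peaks closest to members were ordinary ones. For the 374 members with ES2 within 5 kb, the nearest ES2 peak had a median width of 1681 bp and 16 reads, against 1667 bp and 16 reads over all ES2 peaks. It was 5 kb or wider in 28 (7.49%), against 7.05% of all ES2 peaks. ES2 peaks lay on both sides within 5 kb in 47. The nearest ES2 peak belonged to a region of all 3 lists in 602 members (39.1%, 36.7 to 41.6), against 43.1% of all ES2 peaks, and to a region of ES2 alone in 336 (21.8%, 19.8 to 24.0), against 18.4%. The nearest ES2 peak was thus more often one of ES2 alone than ES2 peaks counted singly, of which 9133 lay in the 8205 regions of all 3 lists.

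Some members missed an ES2 peak by a few bases. The smallest gaps were 25 bp at chr19:5067602-5068753, 38 bp at chr10:117119545-117120649, 40 bp at chr16:90220640-90224456, 46 bp at chr3:58218136-58223164 and 50 bp at chr5:110771852-110773705. At the first of these, ES1 held 13 reads (6.92 to 22.2), ES3 14 (7.65 to 23.5) and the neighbouring ES2 peak 9 (4.12 to 17.1). The third had the most ES1 reads of the 5, 38 (26.9 to 52.2), and an ES2 peak of 24 reads (15.4 to 35.7) beside it. A gap of 100 bp or less was found in 6 members and of 250 bp or less in 10. On the other side of the rule, 6 of the 8205 regions of all 3 lists had 100 bp or less of ES2 within the ES1 and ES3 peaks, and 30 had 250 bp or less. The closest to membership was chr1:94069521-94080206, where 55 bp of an ES2 peak with 22 reads (13.8 to 33.3) met ES1 and ES3 peaks of 52 and 29 reads.

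Other members lay far from ES2, in a share close to that of other regions without ES2. An ES2 peak lay within 50 kb of 82.6% (80.6 to 84.4) of members. The same was true of 80.2% (79.3 to 81.0) of regions of ES1 alone and 80.0% (77.2 to 82.5) of ES3 alone. ES2 was more than 50 kb away from 268 members (17.4%) and more than 500 kb away from 16. These 268 were narrower and held about as many reads, with a median width of 1754 bp and medians of 14 ES1 and 13 ES3 reads, against 2190 bp, 16 and 13 in members with ES2 within 5 kb. They were also far from other peaks of their own lists: the next ES1 peak was a median of 66331 bp away and the next ES3 peak 125186 bp. Members with ES2 within 5 kb had their next ES1 peak at 3458 bp and their next ES3 peak at 6222 bp. Long gaps to ES2 thus lay where all 3 lists were sparse. The longest gap, chosen after its value was seen, was 1.75 Mb at chr4:75659416-75661695, with 22 ES1 and 15 ES3 reads, where the next ES1 peak was 735 kb and the next ES3 peak 1754 kb away.

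Peaks of all 3 lists surrounded the members in the order of the lengths of the lists. The next peak outside the member lay within 5 kb in 31.3% (29.0 to 33.7) for ES1, 24.3% for ES2 and 13.4% (11.7 to 15.2) for ES3. The same held for the list that a pair of lists lacked. Regions of ES1 and ES2 without ES3 had an ES3 peak within 5 kb in 14.7% (13.9 to 15.5), and regions of ES2 and ES3 without ES1 had an ES1 peak that close in 32.3% (28.6 to 36.1). A median of 8 other union regions lay within 100 kb of a member, against 9 for regions of all 3 lists, 7 for ES1 and ES2 without ES3, and 6 for ES1 alone. The share with none in that window was 4.94% (3.91 to 6.14), between the 3.07% (2.71 to 3.47) of regions in all 3 lists and the 5.79% (5.30 to 6.31) of ES1 alone.

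Members did not gather next to each other. The next region on either side was another member in 158 of 3076 cases (5.14%, 4.38 to 5.98), against 4.97% of members among all union regions. Each pair of neighbouring members was counted from both sides, so this interval is too narrow. It was a region of all 3 lists in 25.7% (24.1 to 27.2), against 26.5%, and a region of ES1 alone in 26.6% (25.0 to 28.2), against 27.2%. The nearest other member was a median of 216 kb away, and 40 members (2.60%) had one within 5 kb. Along the chromosome, members were thus interspersed with the other classes in about the proportion of those classes.

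The chromosomes held 48 to 125 members each. As a share of the regions with ES1 and ES3 peaks, members were lowest on chromosome 8, with 70 of 653 (10.7%, 8.45 to 13.3), and on chromosome 6, with 91 of 720 (12.6%, 10.3 to 15.3). Both intervals lay below the autosomal value of 15.8%. The share was highest on chromosome 5, with 114 of 598 (19.1%, 16.0 to 22.4), whose interval lay above that value. The other 16 chromosomes had intervals that included it, and with 19 intervals of 95% some lie outside by counting alone. Chromosome 8 also had the most ES2 peaks per ES1 peak, 0.929, against 0.872 on chromosome 6 and 0.752 on chromosome 5. The order was not strict: chromosome 14 had 0.876 with a share of 13.5%, and chromosome 2 had the lowest value, 0.739, with a share of 17.8%. Over the 19 chromosomes the ratio and the members' share had a Spearman's rho of -0.53. These numbers share the ES2 peaks that the rule used, and their part in the members' shares was not tested.

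**Figure D5:**
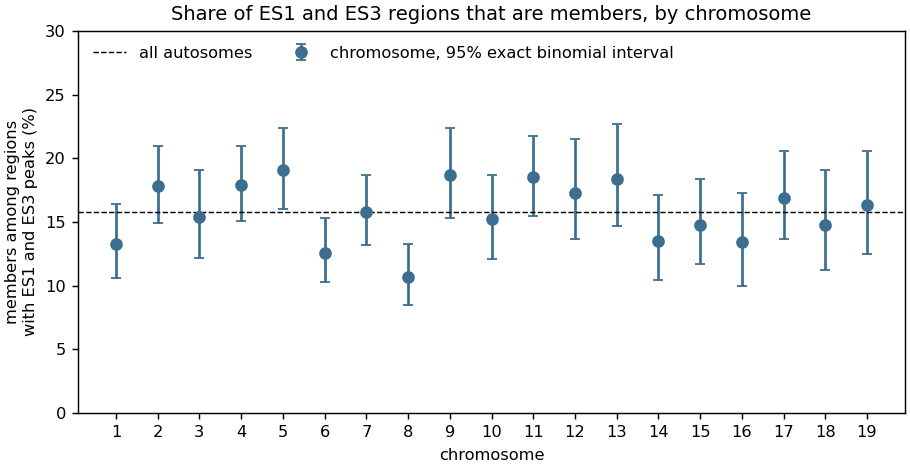
Members as a share of the regions with ES1 and ES3 peaks (y axis, %) on each autosome (x axis). Points are shares, bars exact binomial 95% intervals and the dashed line the value over all autosomes, 15.8%. Chromosomes 6 and 8 lie below the line and chromosome 5 above it, by their intervals.

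Which regions were members depended on the lengths of the lists. With the top 12239 peaks of each list by score, 1791 regions met the rule and 724 of the 1539 members (47% of the members and 40.4% of the 1791) were found among them again. By reads, 1933 met it and 647 (42.0% of the members and 33.5% of the 1933) were found again. ES3 stayed whole in both, so members were lost with the ES1 peaks taken out and other regions entered with the ES2 peaks taken out. Leaving out only the 5963 ES2 peaks of 12 or fewer reads, 28.1% of that list, raised the number to 2956, with all 1539 members included by construction.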

How the data were processed

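Peak lists of the whole series were used. Reads were aligned with Bowtie to mm9, per the submitters' processing notes. Aligner version, peak caller and duplicate filtering: not given in the sources used here. Every peak is listed with a start, an end, an inner interval and a score that the authors deposited without a unit.

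Score times inner length came to whole multiples of 1 unit, set for each chromosome of each list, for 100% of peaks (tolerance 0.001). That multiple was taken as reads, and the unit as the bp per read over the chromosome. Both are assumptions. Coordinates are 1-based. Peaks were merged, classified and measured with Python 3.11.15, pandas 2.3.3, NumPy 2.4.6 and SciPy 1.17.1, and the functions were tested on simulated data. Shares have exact binomial and reads exact Poisson 95% intervals. With 1 list per name, no test was made.

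Members, lists and alternatives were chosen with earlier results of these data known. Named regions are the 8 members with the largest smaller-of-both reads, the 5 widest, the 5 closest to ES2 and the first member at the median. The 5 highest and 5 lowest density ratios at 15 or more reads in both are named too. At the width limit these are the 3 members nearest below it and the 1 region it removed. Chromosome X was left out by the rule. The reference tables given with the series are of another mouse build, so genes and sequences were not analysed here.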

Additional observations from a re-analysis of the deposited data

How the results depend on the processing

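Of 71 values computed under alternatives, 46 stayed inside the interval of the reported value, or within 1.5 times the reported count, and 25 did not. These counts say little about stability, since several alternatives left nearly all members in place. Those found again were 97.8% with peaks within 1 kb merged, 97.2% with single peaks under 5 kb and 98.2% with a 1 kb margin to ES2. All were kept with no limit on width and with chromosome X added. The number of members stayed within 1.5 times in 8 of 10 alternatives. It was 2956 without the ES2 peaks of 12 or fewer reads, and 854 when single ES1 and ES3 peaks had to share 50% of both. Without those ES2 peaks, the median width was 2097 bp, the share of ES3 bases in ES1 87.3% and the share with ES2 within 5 kb 19.6%. With 50% of both peaks shared these were 1626 bp, 86.9% and 22.1%, the median ES3 reads 14 and the share with more ES1 reads 57.3%. With no ES2 peak allowed within 5 kb, the median width was 1784 bp and the share within 5 kb is 0 by construction. Lists of equal length by score gave 2106 bp, medians of 13 ES1 and 14 ES3 reads, 86.1% shared, 14.9% within 5 kb and more ES1 reads in 48.7%. By reads they gave 2646 bp, 24 and 14 reads, 98.8%, 19.8% and 90.5%. The shares of 19.6%, 14.9% and 19.8% within 5 kb were counted with ES2 peaks taken out. A lower share there says nothing about the members' surroundings. ES1 no longer led with lists shortened by score, but ES3 stayed whole there and the ranking chose which ES1 peaks stayed. How much of the change came from that was not tested. Per kb of inner interval, ES1 was higher in 58.3%. Merging peaks within 1 kb, both other width limits, a 1 kb margin to ES2 and adding chromosome X moved none of these values.

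Alternatives for gene starts and for sequence were not run, since those steps need an mm9 reference. No paired analysis was possible because no list carries a replicate number and no groups of libraries were compared. With 8 to 10 reads behind the smallest peaks of each chromosome and no value outside peaks, the depth does not show how far a region without a peak lay below the limit of its list.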
